A study of Caenorhabditis elegans with 2 samples.

Results

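The 612 nuclear tRNA genes of Caenorhabditis elegans in the WBcel235 annotation (Ensembl release 115) were examined for binding by LIN-15B, a nuclear protein of the synMuv B group known for repressing germline genes in somatic cells. Each gene was given a window from 500 bp upstream to 200 bp downstream of its 5′ end, and a gene was called bound when the summit of a peak in the list thresholded by the irreproducible discovery rate (IDR) lay in that window. All annotated members were kept whatever their signal, and 92 summits of that list served 105 of the 612 genes. Neighbouring windows overlapped in places, so the 612 windows formed 507 separate loci, and 13 of the 92 summits served 2 genes.

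The chromatin came from whole L3 larvae of mixed sex, strain OP184, with the genotype unc-119(tm4063) III; wgIs184, in which wgIs184 is the integrated transgene that carries LIN-15B tagged with eGFP. All samples carry both the unc-119 allele and the transgene, the strain is a single integrated line, and the only samples are 2 biological replicates, with no other condition to set beside them. Whole larvae mix all cell types, so weak binding in many cells and strong binding in a few cannot be told apart. The sequencing depth is unknown, and intervals given below cover counting error only.

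Transfer RNA genes are transcribed by RNA polymerase III from a promoter that lies inside the transcribed sequence. The factor TFIIIC recognises an A box near the start of the gene and a B box in the region of the T arm, and recruits TFIIIB just upstream of the 5′ end, where the polymerase then initiates. In C. elegans tRNA genes are scattered over all chromosomes, often in introns, with many on X, and most isotypes are encoded by several identical copies.

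The sequences of 5 bound tRNA genes are shown because the internal promoter is the feature against which the peak positions are described below. They run 5′ to 3′ on the sense strand of the gene, were read from the RefSeq genome of WBcel235, and have the B box (searched as GTTCNANNC) in capitals.
ZK678.t1 (tRNA-Leu, chrX:15742050-15742133, plus strand): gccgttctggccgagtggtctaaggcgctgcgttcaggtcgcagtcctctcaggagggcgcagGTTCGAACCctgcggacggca
C05G6.t1 (tRNA-Val, chrIV:620482-620554, plus strand): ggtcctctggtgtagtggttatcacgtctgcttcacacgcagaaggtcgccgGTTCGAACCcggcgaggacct
C04E7.t1 (tRNA-Leu, chrX:353255-353336, minus strand): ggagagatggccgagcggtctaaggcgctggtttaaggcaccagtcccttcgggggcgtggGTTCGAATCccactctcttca
T23F1.t2 (tRNA-Pro, chrV:15465225-15465296, minus strand): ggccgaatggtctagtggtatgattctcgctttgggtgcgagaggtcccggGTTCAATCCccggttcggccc
K11H12.t1 (tRNA-Sec, chrIV:658181-658266, plus strand): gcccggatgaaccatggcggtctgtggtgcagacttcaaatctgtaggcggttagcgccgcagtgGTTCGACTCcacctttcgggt
The B box letters were found on the sense strand of 587 of the 612 gene bodies (95.9%), with their first base at a median of base 52 of the gene. They were as frequent in bound genes (101 of 105, 96.2%) as in unbound genes (486 of 507, 95.9%). The letters searched for the A box, TNGCNNAG, are a narrow pattern, found in only 43.8% of all gene bodies. They were found in 41.9% of bound and 44.2% of unbound genes. A gene without these letters need not lack an A box.

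Identical copies of a tRNA gene share the internal promoter and differ in their flanks, and the next 4 sequences show this for a bound and an unbound copy of each of 2 families. They run 5′ to 3′ from 50 bases upstream of the gene to 10 bases beyond it, with the gene in capitals, again from the RefSeq genome of WBcel235. In each family the bound copy is the one with the highest signal in no protein-coding window, and the other copy had no summit in the pooled list or in the list of either replicate.
W09D6.t2 (tRNA-Pro, bound, chrIII:11066838-11066969, minus strand): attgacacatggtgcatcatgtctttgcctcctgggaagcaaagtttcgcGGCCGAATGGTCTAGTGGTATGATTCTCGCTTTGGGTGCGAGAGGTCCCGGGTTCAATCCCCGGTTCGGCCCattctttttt
R11G10.t1 (tRNA-Pro, unbound, chrV:13509643-13509774, plus strand): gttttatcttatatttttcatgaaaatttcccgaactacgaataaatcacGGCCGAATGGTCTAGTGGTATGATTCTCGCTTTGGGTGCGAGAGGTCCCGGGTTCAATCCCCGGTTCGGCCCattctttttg
Y7A9D.t2 (tRNA-Ala, bound, chrIV:16389201-16389332, minus strand): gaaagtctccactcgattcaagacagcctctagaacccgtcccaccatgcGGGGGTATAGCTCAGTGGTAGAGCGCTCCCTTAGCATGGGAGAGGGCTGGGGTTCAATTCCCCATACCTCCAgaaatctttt
F48E3.t1 (tRNA-Ala, unbound, chrX:7507280-7507411, minus strand): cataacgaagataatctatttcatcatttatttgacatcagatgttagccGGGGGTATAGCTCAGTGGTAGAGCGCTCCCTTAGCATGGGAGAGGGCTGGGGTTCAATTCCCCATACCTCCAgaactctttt

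LIN-15B summits stood at 105 of the 612 tRNA genes (17.2%, exact 95% interval 14.3 to 20.4). By the same windows 13.5% of 19973 protein-coding genes were bound, a difference of 3.69 percentage points (Newcombe 95% interval 0.873 to 6.92). Counted over the 507 loci, so that neighbours with a common window count once, 92 were bound (18.1%, 14.9 to 21.8). The windows covered 0.388% of the nuclear genome and held 2.76% of the IDR summits, which gave 237 summits per Mb of window against 33.2 per Mb over the whole genome and 127 per Mb in protein-coding windows. The gene bodies alone held 36 summits, or 785 per Mb. The higher share of tRNA than of protein-coding genes did not hold in the upper 50% of the IDR list by signal. There 17 of 612 tRNA genes were bound, against 1707 of 19973 protein-coding genes.

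Most of these summits lay outside the promoter windows of protein-coding genes. Of the 92 summits, 75 lay in no protein-coding promoter window and 17 lay in one. The 75 served 85 tRNA genes, 13.9% of all (11.2 to 16.9). The 20 other bound tRNA genes shared their summit with a protein-coding promoter, and whether such a summit belongs to the tRNA gene or to the protein-coding gene cannot be told apart. The windows of 163 tRNA genes touched a protein-coding window, and 20.2% of these were bound against 16% of the 449 that touched none, a difference of 4.21 points whose interval included 0 (-2.37 to 11.7).

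The summits were centred on the tRNA gene itself. Of the 92 summits, 85 (92.4%, 84.9 to 96.9) lay within 100 bp of the nearest tRNA 5′ end, a stretch that makes up 28.7% of a window. The median position was 8 bp downstream of the 5′ end, with quartiles at -33.5 and 48.2 bp, and 36 summits (39.1%) lay inside a tRNA gene body. Of the 75 summits in no protein-coding window, 72 (96%) were within 100 bp. Bound protein-coding genes differed in this, with a median summit position of -174 bp, while bound tRNA genes, each counted with its own 5′ end, had a median of -4 bp. A position near the 5′ end was not particular to tRNA genes. Bound snoRNA and snRNA genes had medians of -42 and -30 bp, and bound miRNA genes one of -250 bp. The exceptions named by the rule were F58D5.t1 at -429 bp, Y38E10A.t1 at -231 bp, R04A9.t1 at -171 bp, C28G1.t1 at -147 bp and M01E5.t1 at -117 bp, all among the 20 highest signals. The other exceptions, named after their values were seen, were C06G4.t1 at -384 bp and C56G7.t1 at 196 bp. Of the 92 peaks, 86 (93.5%) had the same width of 310 bp, against 64.6% of all IDR peaks, so that their summit is the middle of a fixed interval.

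**Figure D1:**
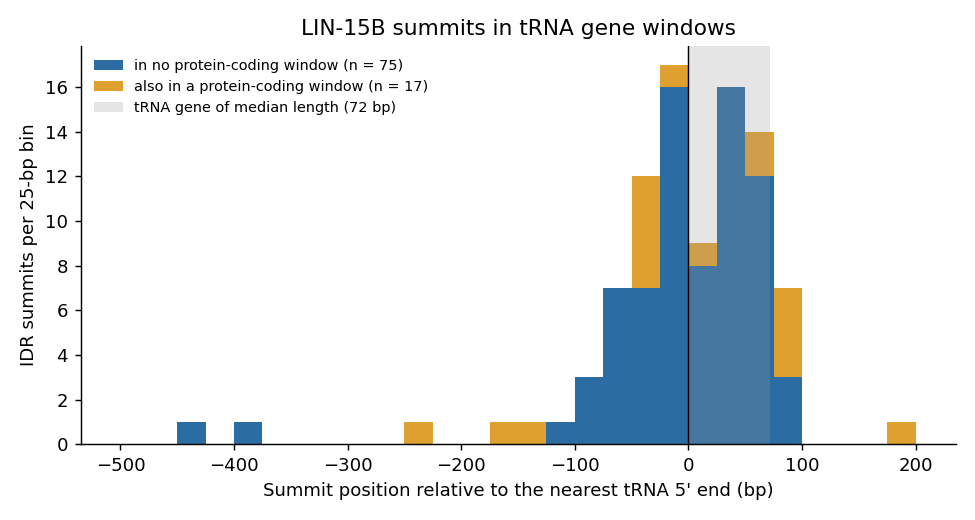
Histogram of the 92 IDR summits in tRNA windows by their distance in bp from the 5′ end of the nearest tRNA gene, in bins of 25 bp, with summits that also lie in a protein-coding window stacked in a second colour and a grey band for a gene of the median length of 72 bp. Of the 92 summits, 85 lie within 100 bp of the 5′ end.

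The B box letters lay within 50 bp of the summit, on either strand, at 37 of the 75 summits outside protein-coding windows (49.3%, 37.6 to 61.1) and at 61 (81.3%) within 100 bp. Over all summits of the IDR list the shares were 3.96% within 50 bp and 6.84% within 100 bp. The 75 summits were chosen for lying in tRNA windows, and nearly all tRNA genes hold these letters. This contrast therefore follows from their position and says nothing further about the B box. Of the 612 tRNA windows, 97.7% held these letters, against 21.5% of protein-coding windows of the same length. The repeat GAGAGA, searched on both strands, was found within 50 bp at 14.7% of the 75 summits (7.56 to 24.7) and at 26.9% of all IDR summits. Within 100 bp its shares were 32% (21.7 to 43.8) and 41.3%, the latter inside that interval. GCGCGC was found within 50 bp at 1 of the 75 (1.33%, 0.0338 to 7.21) against 10.1% of all. Over whole windows GAGAGA was found in 39.7% of tRNA windows and 36.8% of protein-coding windows, and GCGCGC in 6.05% and 6.24%. Intervals of the same size as those at the summits were not searched at unbound tRNA genes. The motif shares at the summits thus cannot be told apart from those of tRNA genes in general. The mean GC content within 50 bp of the summit was 49.3% ± 6.49 (SD over 75 summits) against 47.0% ± 7.30 for all IDR summits.

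The signals at tRNA genes were low for this list. Signal here is the authors' own value for each peak, on a scale that is not given, and ranks run from 1 for the highest of the list. The 92 peaks had a lowest signal of 22.7, a median of 33.3 and a highest of 265.9, and the median signal at bound protein-coding genes was 70.5. Of the 92, 15 (16.3%) were in the upper 50% of the IDR list by signal, where 63.5% of bound protein-coding genes had their peak. The 17 summits in protein-coding windows had a median of 48 and the 75 others one of 33.2.

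The highest tRNA peak stood at Y82E9BR.t1, a tRNA-Gly gene in an intron of lelo-2 on chromosome III (chrIII:1424429-1424714). Its IDR signal was 265.9, at rank 195, with 124.3 in replicate 1 and 140.5 in replicate 2. ZK678.t1, the tRNA-Leu gene shown above, followed with 245.3 at rank 225 (chrX:15741965-15742166), and had 108.3 and 134 in the replicates. Its summit lay 13 bp inside the gene. These were the only tRNA peaks above 200, and neither lay in a protein-coding window.

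Y38E10A.t1, a tRNA-Ala gene on II, had a signal of 181.7, with its summit also in the window of Y38E10A.22. F58D5.t1, a tRNA-Val gene, was the highest on chromosome I with 127.3, but its summit was far upstream. C28G1.t1, a tRNA-Glu gene on X, had 101, in the windows of C28G1.2 and sec-15, a member of the exocyst complex. W09G10.t1, a tRNA-His gene in col-72, had 93.1 in the window of W09G10.9, and M01E5.t1, a tRNA-Lys gene, had 83.9. On chromosome V the highest was the peak of 76.7 between the convergent genes T23F1.t1 (tRNA-Lys) and T23F1.t2 (tRNA-Pro), in the window of pqn-71. On chromosome IV it was Y7A9D.t2 (tRNA-Ala) with 62.8, 11 bp upstream of the gene and in no protein-coding window.

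The other genes among the 20 highest had signals from 51.5 to 55.5. C04E7.t1 (tRNA-Leu) shared its summit with sor-3, a gene needed to keep homeotic genes repressed, R04A9.t1 (tRNA-Gln) with its host ZK1193.2, W09G10.t2 and W09G10.t3 (tRNA-Lys and tRNA-Thr) with clec-126, and C43G2.t1 (tRNA-Leu) with try-3. In no protein-coding window were C05G6.t1 (tRNA-Val, 53.6), F47G6.t1 (tRNA-Arg, 53.5), T22A3.t1 (tRNA-Gly, 53.2), F41D9.t3 (tRNA-Asn, 52.5) and C37A2.t1 (tRNA-Cys, 52.3). The next outside such windows were F42A10.t1 and F42A10.t2 (tRNA-Ser) on a common peak of 50.5, C04A2.t1 (tRNA-Leu, 49.5), K08E7.t1 (tRNA-Lys, 48.6) and Y65A5A.t1 (tRNA-Ala, 44.7). All these peaks were present in both replicates.

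A pair of genes with a known special role was looked up after the values were seen. K11H12.t1, the gene for the selenocysteine tRNA, which reads a UGA codon as selenocysteine, had a signal of 48 with its summit 43 bp upstream, inside the window of its host K11H12.8. sup-5, a tRNA-Trp gene in fli-1 known from amber suppressor mutations, had 38.0 with its summit 18 bp upstream and in no protein-coding window.

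**Figure D2:**
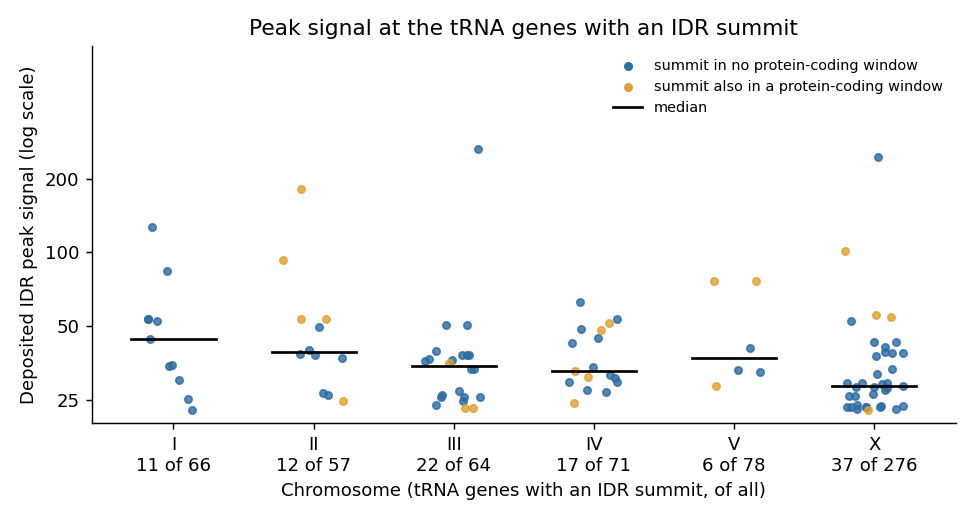
Deposited IDR peak signal (log scale) of each of the 105 bound tRNA genes by chromosome, with the count bound of all genes under each name, colour for summits that also lie in a protein-coding window and a line at the median. The 2 genes above 200 are Y82E9BR.t1 on III and ZK678.t1 on X, and the medians run from 28.5 on X to 44.2 on I.

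The replicates had a peak at nearly all of these positions and, within this selected set, ordered them only loosely. Of the 92 IDR peaks, 91 had a peak in both replicates, and the exception, at rte-5 and its neighbour F02D10.t2, had none in replicate 1. The replicate lists hold 24760 and 27552 peaks with signals down to 2.00, so a peak there can be weak. Replicate 1 gave a lowest signal of 5.17, a median of 16.1 and a highest of 124.3, and replicate 2 gave 4.61, 18.4 and 140.5. When each replicate's list was cut at the length of the IDR list, the peak was in that of replicate 1 for 76 of the 92, of replicate 2 for 72 and of both for 57. Spearman's rho between the signals of the replicates, a description over 91 peaks of the same pair of samples, was 0.438. It was 0.278 over the 74 peaks outside protein-coding windows and 0.855 over the 17 inside them. The 92 peaks were those above a cut of 22.7 in the pooled signal, so these values describe a limited range. They do not measure agreement of the replicates over all tRNA genes. ZK899.t1, a tRNA-Pro gene named after its values were seen, had 21.3 in replicate 1 at rank 1873 and was at rank 10046 in replicate 2.

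**Figure D3:**
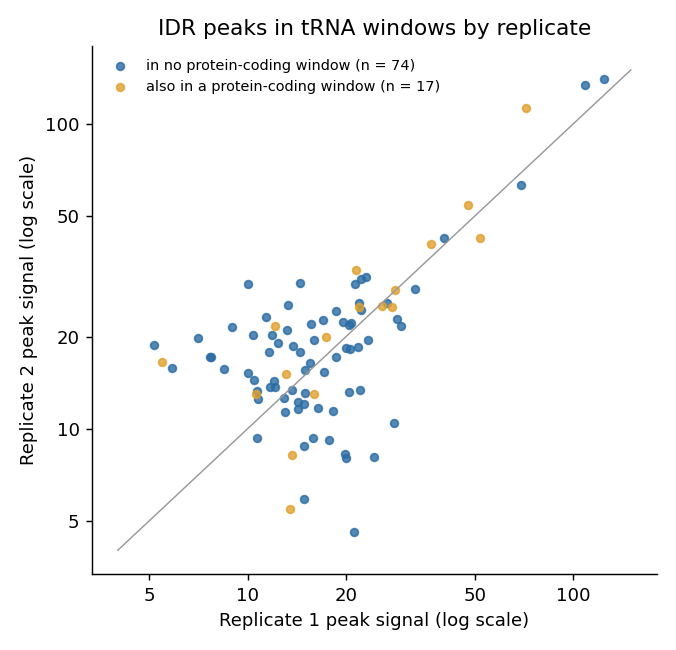
Peak signal in replicate 1 (x axis) and replicate 2 (y axis), both on log scales, at the 91 IDR peaks in tRNA windows with a peak in both, with the diagonal of equal signal. The 3 highest points are Y82E9BR.t1, ZK678.t1 and Y38E10A.t1, and replicate 2 is the higher in 53 of the 91.

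Many more tRNA genes had a summit in the pooled list that the IDR list does not hold. The pooled list is labelled as peaks and background, so a low entry in it need not be binding. In the pooled list of 30000 peaks, whose highest ones are the IDR list, 452 of 612 tRNA genes (73.9%, 70.2 to 77.3) had a summit in the window, against 36.8% of protein-coding genes. Among the 1500 highest pooled peaks the shares were 1.63% and 7.93%. They were 33.7% and 16.6% among the 5000 highest, and 55.9% and 22.3% among the 10000 highest. The tRNA genes thus passed the protein-coding share only near the end of the IDR list, with 2.78% bound by the upper 50% of that list. The summit with the highest signal lay within 100 bp of the 5′ end in 349 of the 452 genes (77.2%), with a median of 11 bp downstream. Pooled signals at tRNA genes ran from 3.30 to 265.9 with a median of 12.4.

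Of the 347 tRNA genes with a pooled summit but no IDR summit, 88 had a pooled peak at the ceiling of 3.96 of the −log10 q-value. Replicate 1 alone gave a summit at 393 tRNA genes (64.2%) and replicate 2 at 400 (65.4%), with 310 genes in both and 129 in neither. No list held a summit for 110 of the 612 genes. At the threshold of the IDR list, the last 3 peaks inside were those of F38G1.t2 (22.7, rank 3327), K02B12.t1 (22.7, rank 3321), and F22F1.t5 with F22F1.t6 (22.8, rank 3303). The first 3 outside were Y95B8A.t1 (22.5, rank 3347), ZK783.t1 (22.5, rank 3348) and T09B4.t1 (22.3, rank 3373).

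**Figure D4:**
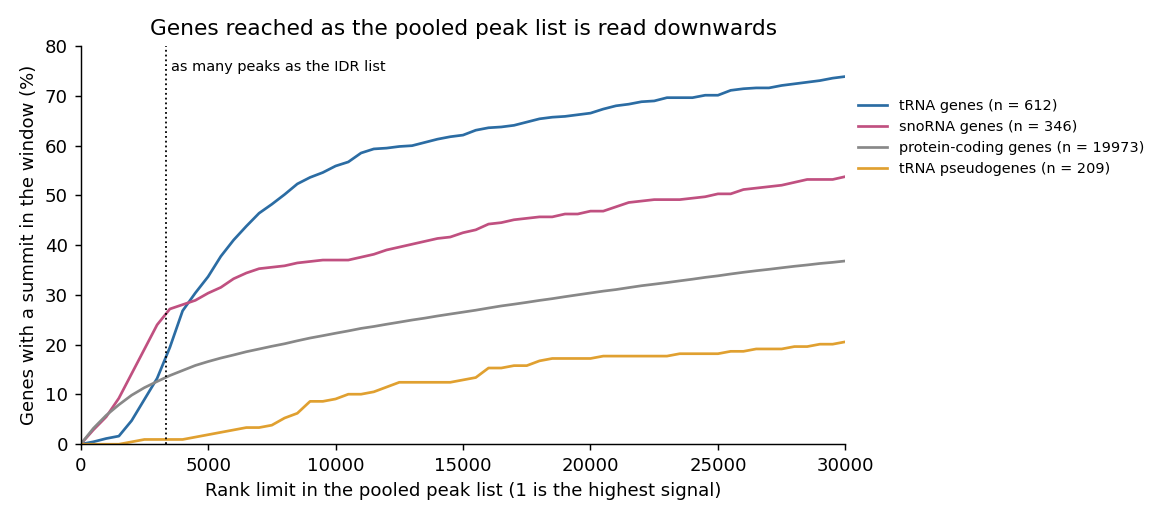
Share of genes (%) with a summit in the window when the pooled list is read from its highest peak down to the rank on the x axis, for 612 tRNA, 346 snoRNA, 19973 protein-coding genes and 209 tRNA pseudogenes, with a dotted line at the length of the IDR list. The tRNA genes pass the protein-coding genes near that line and reach 73.9% at the end, where protein-coding genes reach 36.8% and tRNA pseudogenes 20.6%.

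Other classes of small RNA genes had lower pooled shares. By the same windows 53.8% of 346 snoRNA genes, 39.5% of 129 snRNA genes and 37.9% of 261 miRNA genes had a pooled summit. In the IDR list, 26.6% of snoRNA genes and 10.3% of miRNA genes were bound. The tRNA genes differed from the snoRNA genes by -9.43 points (-15.1 to -4.01) and from the miRNA genes by 6.81 points (1.70 to 11.3). They differed from the snRNA genes, of which 14.7% were bound, by 2.43 points with an interval that included 0 (-5.23 to 8.44).

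The tRNA pseudogenes, decayed copies that RefSeq annotates separately, seldom had a summit in the IDR list. Of 209, 2 were bound (0.957%, 0.116 to 3.41), which was 16.2 points below the tRNA genes (interval 12.5 to 19.5). In the pooled list 43 of the 209 (20.6%) had a summit, against 73.9% of tRNA genes. The 2 bound pseudogenes were T08B2.t1 on chromosome I with a signal of 46.6 and D1046.t1 on IV with 38.8. The latter lay in the window of cfim-2, a pre-mRNA cleavage factor subunit. The B box letters were present in 78.9% of the pseudogenes.

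**Figure D5:**
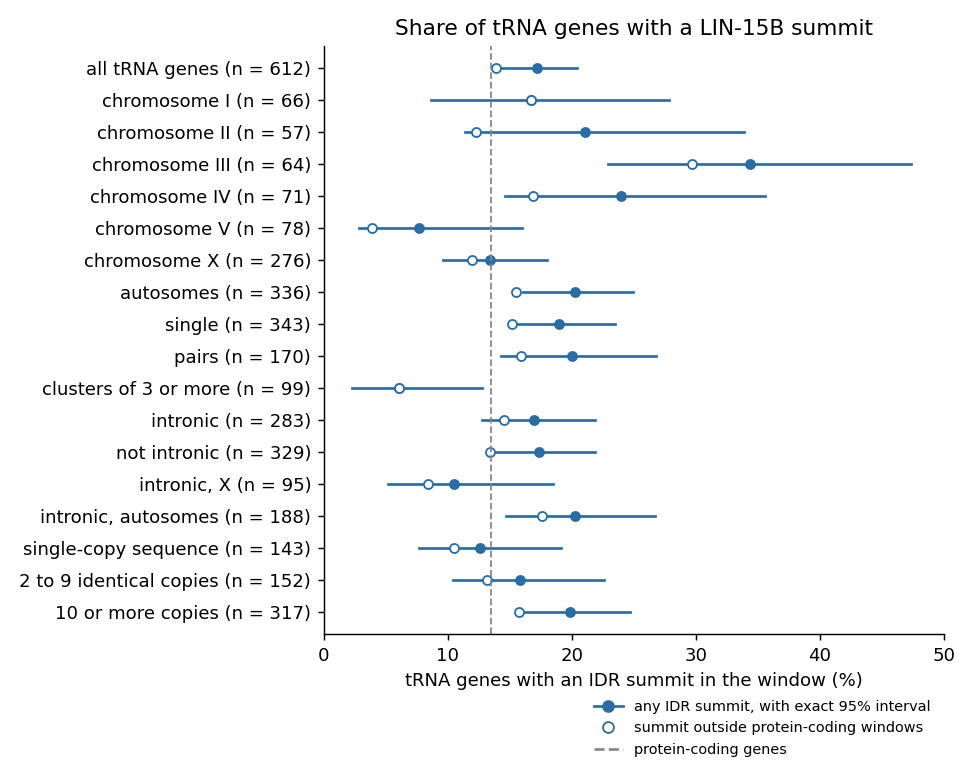
Share of tRNA genes (%) with an IDR summit by chromosome, cluster size, location in an intron and number of identical copies, as filled points with exact 95% intervals, with open points for summits in no protein-coding window and a dashed line at the 13.5% of protein-coding genes. Chromosome III is highest at 34.4%, and chromosome V at 7.69% and clusters of 3 or more at 6.06% are lowest.

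Binding differed widely between chromosomes. On III 22 of 64 tRNA genes were bound (34.4%), on IV 17 of 71 (23.9%), on II 12 of 57 (21.1%), on I 11 of 66 (16.7%), on X 37 of 276 (13.4%) and on V 6 of 78 (7.69%). III was above V by 26.7 points (13.5 to 39.6), a pair picked as the ends of this order, while neighbours in the order had overlapping intervals. The density of all IDR summits per Mb was also highest on III (50.3) and lowest on V (22.7) and X (19.4). The contrast of III with V is thus not particular to tRNA genes. Between these ends the order was not the same, with 47.5 on I, 34.2 on II and 33.2 on IV.

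The X chromosome holds 45.1% of all tRNA genes and was bound less often in the IDR list. Of 210 loci on X 29 were bound (13.8%) against 63 of 297 on autosomes (21.2%), a difference of -7.40 points (-13.8 to -0.583). Protein-coding genes showed a difference of like size, with 7.36% bound on X and 14.4% on autosomes (-7.07 points, -8.13 to -5.91). For summits in no protein-coding window the difference over tRNA loci was -4.93 points with an interval that included 0 (-10.9 to 1.43). The interval over all summits also included 0 with windows of 1000 bp upstream (-7.15 points, -14.0 to 0.146) and in a stricter list, the upper 50% by signal (-1.80, -4.84 to 1.52). Without replicate 2, by as many of the highest peaks of replicate 1 as the IDR list holds, it was -11.7 points. In the pooled list the shares of tRNA genes with a summit were close, 73.6% on X and 74.1% on autosomes. The peaks on X ranked lower there, with a median rank of 6661 against 4516. The difference in the IDR list is thus one of peak strength at its cut.

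The lin-15B gene itself lies on X, and the labels do not say what sequence around it the transgene carries. Within 40000 bp of lin-15B there were 5 tRNA genes, of which 3 were bound: ZK678.t1, and ZK678.t2 and ZK678.t5 on a common peak of 28.1. Extra copies from the transgene as a source of these signals were not tested. Without these 5 genes 102 of 607 (16.8%) were bound, and 34 of 271 on X (12.5%).

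Counted by gene, members of larger clusters were seldom bound in the IDR list. A cluster is a chain of tRNA genes whose 5′ ends lie within 2000 bp of the next. The 343 single genes were bound in 19% and the 170 genes in pairs in 20%, but only 6 of the 99 genes in clusters of 3 or more (6.06%), a difference from single genes of -12.9 points (-18.4 to -5.33). In the stricter list the interval included 0 (-3.50 points, -6.01 to 0.522). In the pooled list 68.7% of the genes in clusters of 3 or more had a summit, against 73.5% of single genes. Their median pooled ranks were 6434 and 4935.5. Counted by cluster, 5 of the 26 clusters of 3 or more had a bound gene (19.2%, 6.55 to 39.4), against 23.4% of all 111 clusters of 2 or more. A cluster has several windows in which a summit can fall, so its share is not comparable with that of single genes. Over all 269 clustered genes the difference from single genes was -4.08 points with an interval that included 0 (-9.93 to 2.00). Without replicate 2 it was -6.49 points (-12.4 to -0.331). The genes of 1 cluster are not independent of each other. Of the 99 genes in clusters of 3 or more, 69 were on X, where 3 were bound (4.35%) against 13.6% of 125 single genes (-9.25 points, -16.9 to -0.130). On autosomes 3 of 30 were bound (10%) against 22.0% of 218 single genes (-12 points with an interval that included 0, -20.9 to 4.38).

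The largest cluster, 8 genes of F22F1 on X, had 1 IDR summit, which served F22F1.t5 and F22F1.t6 with a signal of 22.8, although 7 of the 8 genes had a pooled summit. No cluster had more than 2 bound genes. Of 111 clusters 26 had a bound gene (23.4%), and in 13 of them 1 summit served 2 genes. Only Y7A9D.t1 and Y7A9D.t2 (29.4 and 62.8) had 2 bound genes on separate summits. Among the 85 pairs, a gene was bound in 8 of 19 convergent, 6 of 36 divergent and 7 of 30 same-strand pairs.

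Intronic and other tRNA genes did not differ beyond counting error. Of 283 tRNA genes that lie in an intron of a protein-coding gene, 48 were bound (17.0%), against 57 of 329 others (17.3%), a difference of -0.364 points (-6.30 to 5.71). In 46 of the 48 the summit was within 100 bp of the tRNA 5′ end, in 41 it lay in no protein-coding window, and in 39 the host was not bound. Intronic genes with a bound host were nevertheless bound more often, with 9 of 25 (36%) against 39 of 258 with an unbound host (15.1%), a difference of 20.9 points (4.39 to 40.7). For summits in no protein-coding window this difference was 1.66 points with an interval that included 0 (-9.07 to 20.7). Of the 220 host genes 18 were bound (8.18%). The 10 with the highest signal were Y82E9BR.t1 in lelo-2, W09G10.t1 in col-72, R04A9.t1 in ZK1193.2, C05G6.t1 in C18H7.1, F47G6.t1 in spe-15, a myosin used in spermatogenesis, T22A3.t1 in set-18, F41D9.t3 in sulp-3, C37A2.t1 in cye-1, the cyclin E gene, C04A2.t1 in C04A2.15 and K08E7.t1 in pgp-1, a P-glycoprotein transporter.

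Intronic genes on the strand of their host were bound in 18.1% and those on the opposite strand in 15.6% (2.55 points, -6.55 to 11.1). On X 10.5% of 95 intronic genes were bound against 20.2% of 188 on autosomes (-9.69 points, -17.6 to -0.378). For genes outside introns the difference between X and autosomes was -5.35 points with an interval that included 0 (-13.8 to 2.85).

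Identical copies of a gene were bound in part. The 612 genes had 200 different sequences, and the 469 genes with at least 1 identical copy formed 57 families. Of these families, 36 had a bound member and 34 had both bound and unbound members. Of the 469 genes 87 were bound (18.6%), near the share of all tRNA genes. At such a share most families with a bound member also hold unbound ones, so this mix says little about copies. All 20 families of 10 or more copies had a bound member. Of their 317 genes 63 were bound (19.9%), near the 17.2% of all tRNA genes, so a bound member in a family this large says little about families. Reads from identical gene bodies can be placed only by their flanks, and no header or label states how this was done. The largest families were 29 tRNA-Gly genes with 4 bound, 25 tRNA-Lys genes with 6 and 24 tRNA-Pro genes with 6, the last being the family of W09D6.t2 and R11G10.t1 shown above. The 15 tRNA-Ala copies of the family of Y7A9D.t2 and F48E3.t1 had 5 bound members.

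Genes with a single-copy sequence were bound in 18 of 143 cases (12.6%) and those with copies in 87 of 469 (18.6%), a difference of -5.96 points with an interval that included 0 (-11.8 to 1.25). The interval excluded 0 without replicate 2 (-8.15 points, -14.0 to -0.986) and in a lenient list, added after seeing the data, which takes every pooled peak whose q-value stood at its ceiling (-14.7 points, -22.0 to -6.25). In the pooled list 56.6% of the single-copy genes, 74.3% of those with 2 to 9 copies and 81.4% of those with 10 or more had a summit. The part of read placement in this was not tested.

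The only tRNA-Sec gene was bound, as given above. Among the other isotypes the shares ran from 7 of 27 tRNA-Asp genes (25.9%), 10 of 41 tRNA-Glu genes (24.4%) and 8 of 34 tRNA-Ala genes (23.5%) to 5 of 55 tRNA-Gly genes (9.09%), 1 of 12 tRNA-Trp genes (8.33%) and 1 of 19 tRNA-Tyr genes (5.26%). The exact intervals of these overlapped, for example 11.1 to 46.3 for tRNA-Asp and 0.133 to 26.0 for tRNA-Tyr. Of 5 genes whose isotype is undetermined none was bound.

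The protein-coding genes of the RNA polymerase III machinery and of tRNA maturation were also looked up by their promoter windows. Of 32 listed, 31 matched an annotated gene, rpc-9 being the exception, and 13 were bound (41.9%, 24.5 to 60.9) against the 13.5% of all protein-coding genes. With windows of 200 bp upstream 6 were bound (19.4%, 7.45 to 37.5) against 7.61% of all protein-coding genes, a share that this interval includes. Among polymerase subunits the genes bound with 500 bp windows were rpc-1, the largest subunit of the enzyme, with a signal of 37.9, rpac-19 (24.4), and the subunits common to the 3 nuclear polymerases rpb-5 (91.5), rpb-6 (41.8), rpb-8 (85.8), rpb-10 (48.6, with Y37E3.1) and rpb-12 (178.4, with aly-2). Among factors they were tftc-1, a TFIIIC subunit (95, with ppgn-1), and mafr-1, the homologue of the polymerase III repressor Maf1 (89.5). Among maturation genes they were xpo-3, the tRNA exportin (37.4, with C49H3.3), elpc-2 of the Elongator complex (66.9, with taf-7.2), the pseudouridine synthase gene pus-1 (56.9) and ssb-1, the La protein gene (60.1, with ubr-4). Genes for TFIIIB (brf-1 and tbp-1) and the other TFIIIC subunits in the list (tftc-3 and tftc-5) had no IDR summit. The polymerase subunit genes rpc-2, rpc-11, rpc-25 and rpac-40 had none either, so rpc-1 was the only bound rpc gene of those matched. Of the remaining listed genes, hoe-1, rtcb-1, clpf-1, popl-1, nsun-2, alkb-8, elpc-1, elpc-3, tut-1 and larp-1 also had none.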

How the data were processed

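ChIP-seq of eGFP-tagged LIN-15B in L3 larvae was deposited as ce11 peak lists: 1 for each replicate, 1 for the pooled alignments of both and 1 thresholded by IDR. The pooled list is labelled as peaks and background, the input of the IDR step. The deposited text records state that a control was used for the peak calls of each replicate and of the pooled alignments. For the aligner, the peak caller and the cut of the IDR step, names and settings were not given in the sources used here. Each peak's signal is the authors' deposited value on a scale not given, and served only for ranks and descriptions inside a list, and for setting replicates side by side. The deposited −log10 q-value of the authors reached its ceiling of 3.96 in 4585 pooled peaks, which form the lenient list. Per the labels, fragments were 150 to 350 bp long and the replicates biological. The lists give no read counts, so the depth is unknown.

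ce11 is the assembly WBcel235, and positions are 1-based. Genes came from Ensembl release 115, and tRNA products, pseudogenes and sequence from RefSeq, which matched all 612 tRNA genes. A summit counts in every window that holds it. A protein-coding gene was bound by a summit in the window of any of its annotated transcript 5′ ends. Overlapping tRNA windows form a locus. An intronic gene lies wholly in a protein-coding gene and touches none of its exons. Motif letters were read on both strands except in gene bodies.

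With 1 group, no test was run. Shares carry exact 95% Clopper-Pearson intervals and differences Newcombe intervals, which take genes as independent. The tRNA genes, the other gene lists and the comparisons were chosen with earlier results of these data known. Named were the 20 tRNA genes of highest signal, the highest on each chromosome, the 15 highest outside protein-coding windows, the largest cluster and the one with most bound genes (a tie among the clusters with 2, of which the one with separate summits is named), the 10 highest intronic genes, the 3 on each side of the threshold, and bound members of the polymerase III list. Unbound members of the polymerase III list were named as well. The code was tested on simulated data with planted summits. The software was Python 3.11.15 with scipy 1.17.1 and numpy 2.4.6, and figures were drawn in matplotlib 3.10.9.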

Additional observations from a re-analysis of the deposited data

How the results depend on the processing

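Of 102 recomputed values, 80 stayed inside the interval of the reported value (or within 1.5 times of a count), 22 moved and none changed sign beyond its interval. The difference between tRNA and protein-coding genes was not among them. It changed sign in the upper 50% of IDR peaks, with 17 of 612 tRNA genes bound against 1707 of 19973 protein-coding genes. The peak list mattered most. In the stricter list, the upper 50% of IDR peaks by signal, the shares bound were 2.78% of tRNA genes, 1.31% outside protein-coding windows and 2.96% of loci, with 15 summits, of which 66.7% were within 100 bp of a 5′ end. There the tRNA genes stood 2.78 points above the pseudogenes, and clusters of 3 or more -3.50 points from single genes. In the lenient list, added after seeing the data, the shares were 31.5%, 25.8% and 32.9%, with 170 summits. Its differences were -14.8 points for X minus autosomes, -14.7 for single-copy minus multicopy genes and 30.1 for tRNA genes minus pseudogenes. The pooled share was 79.2% with 1000 bp and 69.6% with 200 bp upstream, 78.1% by peak interval, and 64.2% to 65.4% in the replicates alone. Windows of 200 bp gave 19.4% for the polymerase III list. Motif windows of 100 bp gave 78.3% of all 92 summits for the B box (46.7% at 50 bp) and 35.9% for GAGAGA (16.3%). No paired analysis was possible because there is only 1 group.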
